A study of Mus musculus with 6 samples.

Results

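Among the 10080 probes on the array, 4 carry the symbols *Gnrh1*, *Trh*, *Sst* and *Ucn*, and each gene has 1 probe. The rule takes probes by symbol and uses no measured value, though the genes were picked with earlier results of these data known. The RNA came from the hypothalamus of male DBA/1 mice, in which collagen with adjuvant is used to induce arthritis, injected intradermally at 8 weeks of age. The collagen group received type II collagen (100 ul) mixed with the same volume of complete Freund's adjuvant, and the control group 200 ul of that adjuvant without collagen. Both groups received lipopolysaccharide at day 24, so the controls also carried adjuvant and endotoxin, and collagen and the smaller adjuvant volume cannot be told apart. Each in-house printed 2-colour oligonucleotide array set a collagen sample against a control sample. The 3 biological replicates each had 2 arrays with the dyes in opposite orientation. Whether a replicate was 1 mouse or a pool is not given in the labels, so p-values measure only the spread between these samples. In the limma fits that spread is moderated across all tested probes.

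The hypothalamus governs the pituitary through short peptides released into the portal blood. *Gnrh1* encodes gonadotropin-releasing hormone, made by few scattered neurons, which drives luteinizing and follicle-stimulating hormone. *Trh* encodes thyrotropin-releasing hormone of the paraventricular nucleus, which drives thyrotropin. *Sst* encodes somatostatin, which inhibits growth hormone. *Ucn* encodes urocortin, a relative of corticotropin-releasing hormone that binds the same receptors and in rodents is made mainly in a midbrain nucleus.

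The promoter sequences are shown because 3 of the 4 genes had a RefSeq window (GRCm38.p6) and *Sst* and *Ucn* share a regulatory motif that the rule did not use. The windows span 250 bases before to 50 after an annotated start, all 3 on the minus strand, and the 100 bases before the start are printed 5′ to 3′. The first listed window of each of these genes was used. The printed *Sst* bases lie within the annotated gene span, 23889573 to 23891342, so that start is an internal one. Those of *Trh* and *Ucn* adjoin the end of the gene span. Capitals mark the cAMP response element TGACGTCA, its shorter core TGACG on either strand (which lies within the full element) and the TATA-box core TATAA.
Sst, chr16:23890845-23890944: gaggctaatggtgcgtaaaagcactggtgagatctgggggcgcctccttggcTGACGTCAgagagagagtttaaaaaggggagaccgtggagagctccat
Ucn, chr5:31138896-31138995: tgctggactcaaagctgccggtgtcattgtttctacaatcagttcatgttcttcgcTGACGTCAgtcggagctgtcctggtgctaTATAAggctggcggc
Trh, chr6:92244651-92244750: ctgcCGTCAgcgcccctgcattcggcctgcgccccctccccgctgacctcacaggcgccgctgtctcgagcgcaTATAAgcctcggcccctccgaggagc
The full element began at position -48 in *Sst* and at -44 in *Ucn*, counted from the start, and was found in 1.79% of 32851 promoter windows of that length. *Trh* held only the shorter core, at -96 on the opposite strand, a match found in 20.8% of the windows. TATAA was found at -26 in *Trh* and at -15 in *Ucn*, and in 24.9% of all windows, with both strands of the 300 bases searched for each motif. These matches describe letters only, and no measurement here bears on binding. *Gnrh1* had no window in the table.

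Over the whole array, 46.1% to 84.9% of spots per array had values in both channels. Channel A gave a value for 96.9% to 99.6% of spots, and channel B for 46.3% to 85.0%. The array with the most values was the array of replicate 3 with collagen in Cy3, and the widest log2 ratios (SD 1.66, against 0.38 to 0.67 elsewhere) were on the array of replicate 1 with collagen in Cy3. Ratios of the repeat scans of an array correlated at 0.86 to 0.97 in replicates 1 and 2 and at 0.54 to 0.73 in replicate 3. A check of the annotation, chosen after seeing the data, found ratios on all 6 arrays for 22 of 39 ribosomal protein probes and 4 of 46 olfactory receptor probes, against 23% of all probes. Among listed hypothalamic markers, *Oxt*, *Gal*, *Pmch* and *Cartpt* had ratios on 6 arrays, *Nkx2-1* on 5, *Otp* on 4, *Avp* and *Hcrt* on 3 and *Sim1* on 1. Of markers listed for thalamus and cortex, *Neurod6*, *Fezf2* and *Calb2* also had ratios on 6 arrays, and *Tcf7l2* on 2. The 2 probes of *Ntng1* had them on 6 and 4. These counts do not identify the tissue. *Pomc*, *Agrp* and *Npy* were not found among the named probes used here.

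Channel A was read as Cy3 because the labels list that dye first, which the files do not state. If channel A were Cy5, collagen and control would exchange in every count and every direction given here. *Gnrh1* and *Ucn* were measured in every channel of every array and every scan, 12 of 12 channels each. *Trh* and *Sst* each had a value in 8 of 12 channels, always in channel A and in channel B only on the arrays of replicate 3. A ratio therefore existed on 6 arrays for *Gnrh1* and *Ucn*, and on 2 arrays, those of replicate 3, for *Trh* and *Sst*. The missing values lay in channel B of replicates 1 and 2, and since the dyes were swapped they fell evenly on the treatments: *Trh* and *Sst* were each measured in 4 of 6 collagen and 4 of 6 control channels. Over all probes a mean of 5.89 of 6 A channels and 3.40 of 6 B channels were measured, with 4.52 for collagen and 4.77 for control, or the reverse if channel A were Cy5. Their pattern, a ratio on both arrays of replicate 3 and on none of the other 4, was shared by 1770 probes, or 17.6% of the array. The same pattern for replicate 1 alone occurred in 34 probes and for replicate 2 alone in 20. In this bulk tissue, fewer cells of a type and less RNA per cell cannot be told apart.

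**Figure D1:**
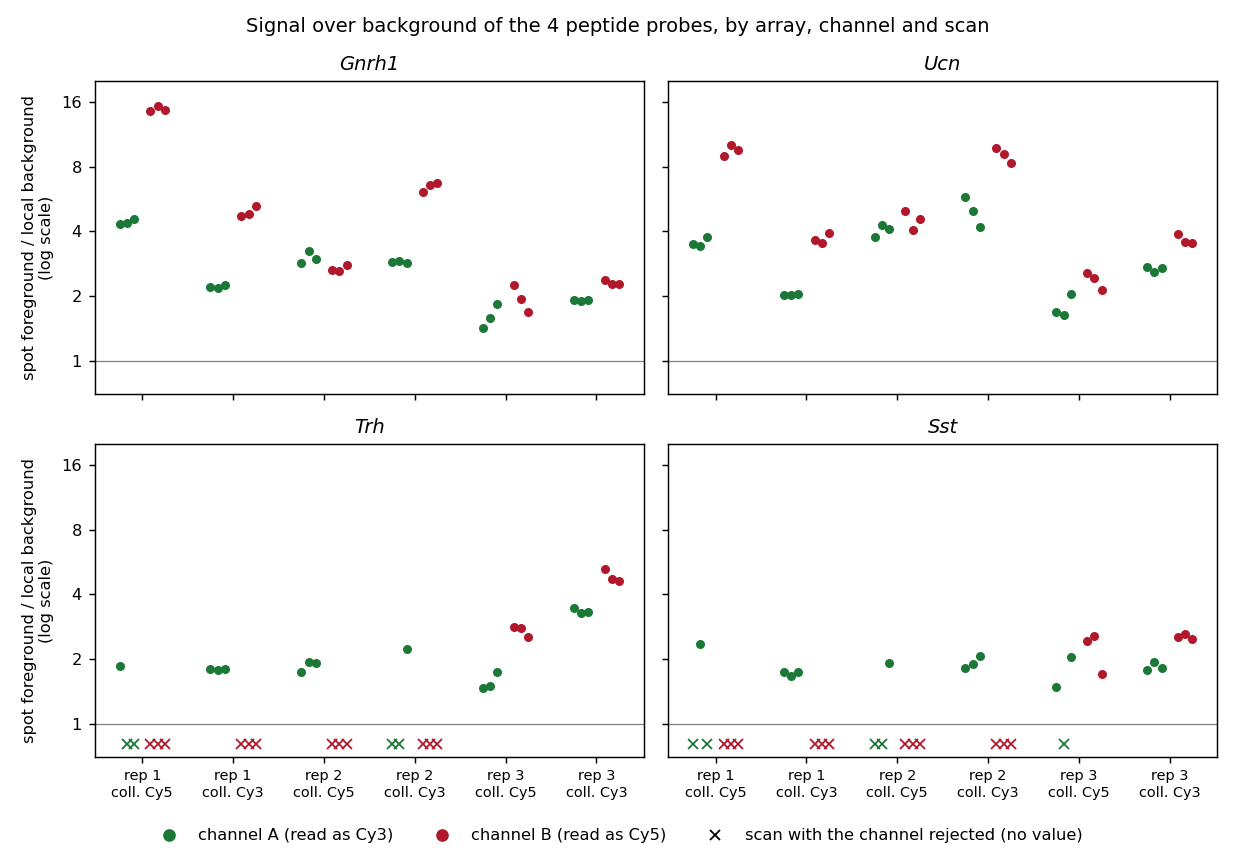
Spot foreground over local background (log axis) for each gene, by array (replicate and the dye that carried collagen), with green points for channel A, red points for channel B and 1 point per scan; crosses mark scans in which the channel was rejected and stand at an arbitrary height. Gnrh1 and Ucn have points in every position, whereas Trh and Sst have crosses in channel B on all 4 arrays of replicates 1 and 2.

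The *Gnrh1* probe lay in printing block row 10, column 2 (Entrez Gene 14714). Its foreground over local background was highest on the array of replicate 1 with collagen in Cy5, at a mean over 3 scans of 4.43 in channel A and 14.8 in channel B. On the other arrays of replicates 1 and 2 the means were 2.21 to 3.02 in channel A and 2.68 to 6.45 in channel B. In replicate 3 they were 1.61 and 1.91 in channel A and 1.95 and 2.30 in channel B. The probe was thus always above background, but by least in replicate 3, the replicate in which *Trh* and *Sst* had values in both channels. The array medians, taken over spots with a value in the channel, were also lowest there, at 1.80 and 1.68 in channel A and 2.21 and 1.86 in channel B. On the other arrays they were 1.83 to 2.33 and 2.23 to 4.71. These medians cover unlike sets of spots. Channel B had a value for 59.4% and 85.0% of spots in replicate 3, against 46.3% to 51.7% elsewhere.

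As a rank within its own array, *Gnrh1* stood at percentile 89.2 of measured channel A intensities on the array of replicate 1 with collagen in Cy5. Its channel A percentile was 68.9 to 76.4 on the other 5 arrays. In channel B it ran from percentile 40.2 to 84.7. A percentile gives the rank of the spot's intensity, summed over its pixels, among the spots with a value in that channel. Channel B had values for fewer spots, in a share that varied by array, so its percentiles are not on the scale of channel A. The rank depends on the spot area and the oligonucleotide as well as on the transcript, and does not order the genes by transcript level.

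The *Ucn* probe (Entrez Gene 22226) lay in block row 10, column 3. Its foreground over background was 1.78 to 4.98 in channel A and 2.38 to 9.52 in channel B over the 6 arrays. The lowest value of each channel was on the array of replicate 3 with collagen in Cy5, where the array medians were 1.80 and 2.21. It stood at percentile 75.9 to 85.9 of channel A on 5 arrays and at 48.9 on the array of replicate 1 with collagen in Cy3. In channel B it ran from percentile 54.8 to 81.4. *Ucn* thus ranked high in channel A on 5 of 6 arrays. Its channel B ranks are among fewer measured spots and cannot be set against those of channel A.

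The *Trh* probe (Entrez Gene 22044), in block row 8, column 4, ranked below the median of channel A in replicates 1 and 2. Channel A was measured in 1 scan on the array of replicate 1 with collagen in Cy5, in 3 scans on its dye swap, and in 3 and 1 scans on the arrays of replicate 2. Its channel A percentiles there were 36.2, 45.0, 4.18 and 6.83, with a foreground of 1.78 to 2.22 times background. On the array of replicate 3 with collagen in Cy3 the same probe stood at percentile 90.5 in channel A and 88.8 in channel B, at 3.34 and 4.84 times background. On the other replicate 3 array it stood at percentiles 70.0 and 61.1, at 1.56 and 2.72 times background. Both collagen and control RNA of replicate 3 thus gave *Trh* signal in both dyes, whereas in replicates 1 and 2 neither group's RNA gave a value in channel B. The spot area moved with this, at 172 to 222 pixels in replicate 3 and 23 to 183 pixels in replicates 1 and 2, and its part in the result was not tested.

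The *Sst* probe (Entrez Gene 20604), in block row 2, column 3, ranked below the median of channel A in replicates 1 and 2 and above it in replicate 3. In channel A it stood at percentiles 2.34, 2.96, 19.98 and 18.5 on the arrays of replicates 1 and 2, and at 51.0 and 63.1 in replicate 3. In channel B it stood at percentiles 47.6 and 64.8 in replicate 3 and was rejected in every scan elsewhere. Its foreground did not follow this order, at 2.34, 1.72, 1.92 and 1.92 times background in channel A in replicates 1 and 2, against 1.76 and 1.85 in replicate 3. The area of the *Sst* spot was 0 to 118 pixels in replicates 1 and 2 and 155 to 185 pixels in replicate 3, and its part in the rank was not tested. In the block of *Sst*, 40.5% to 53.8% of spots had a value in channel B in replicates 1 and 2, against 89.0% and 87.1% in replicate 3. In the block of *Trh*, by contrast, channel B was measured for 58.1% to 69.0% of spots in replicates 1 and 2 and for 48.1% and 78.1% in replicate 3.

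With the strictest definition of detection, a value in every scan, *Sst* had 4 of 6 collagen channels and 1 of 6 control channels. It was detected in 1 collagen and 0 control channels in replicate 1, again 1 and 0 in replicate 2, and 2 and 1 in replicate 3. All 3 of its channel A detections were on arrays with collagen in Cy3, where channel A was measured in every scan for 76.3% of all probes, against 64.2% on arrays with collagen in Cy5. More collagen than control channels in each replicate was seen for 0.744% of all probes and the reverse for 0.446%. If channel A were Cy5, *Sst* would have 1 collagen and 4 control channels and these shares would exchange. *Trh* by the same definition had 3 collagen and 3 control channels. The *Sst* difference was not tested, because 3 replicates allow no two-sided exact permutation p below 0.25.

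Collagen was set against control to find hypothalamic transcripts that change in this arthritis model. Joint swelling or other signs of disease were not analysed here. The log2 ratios below are of collagen over control after loess smoothing against intensity within each scan.

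*Gnrh1* did not pass the test. Its log2 ratio by array was 0.29 and -0.84 in replicate 1 (collagen in Cy5, then in Cy3), -0.31 and 0.018 in replicate 2, and -0.27 and -0.12 in replicate 3. The arrays thus disagreed in sign within replicates 1 and 2, and 2 of 6 arrays were above 0. Averaging the dye-swapped arrays gave replicate values of -0.28, -0.15 and -0.19 with this loess, all below 0 and with an SD of 0.066. Replicate 1 was above 0 with other normalizations, given below. The mean was -0.20 ± 0.15 (SE, n = 3), a fold of 0.868 with a 95% interval of 0.669 to 1.13 (limma, two-sided adjusted p = 0.872). Here and below, limma's SE, interval and p use a variance moderated across all tested probes. For *Gnrh1* the SE is therefore larger than its SD over the 3 replicates. The exact sign-flip permutation test gave p = 0.25, the smallest that 3 replicates allow. Of the 2316 tested probes, 0% passed limma's adjusted threshold of 0.05. At an unadjusted limma p under 0.05 there were 1.08%, of which 0.604% were higher and 0.475% lower in collagen, and neither *Gnrh1* nor *Ucn* was among them. The median log2 ratio of the tested probes was -0.089 and 66.3% of them were below 0, so a small negative value was the usual one, and 22.7% of tested probes had a lower value than *Gnrh1*.

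The even replicate values of *Gnrh1* came from uneven arrays. Over the tested probes, the collagen over control ratios of the dye-swapped arrays of a replicate correlated at -0.20, -0.75 and -0.32, so that as channel B over A they correlated above 0. The part of its ratio that followed the channel, the mean log2 ratio of channel B over A within a pair, was 0.56, -0.16 and -0.074 in replicates 1, 2 and 3. In replicate 1 this was larger in size than the collagen part of -0.28. Repeat scans of the array of replicate 3 with collagen in Cy5 ran from -0.74 to 0.19 for *Gnrh1*, wider than the spread of the 3 replicates, while those of its replicate 1 arrays stayed within 0.27 to 0.30 and within -0.90 to -0.76.

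The *Gnrh1* value that differed most between normalizations was that of replicate 1 with collagen in Cy3. Before smoothing, the log2 ratio of channel B over A on that array was -0.21, which is higher in collagen, and after loess it was 0.84, which is lower in collagen. The 135 measured spots of its block had a median collagen over control ratio of -0.47 there. On the other arrays the block median ran from -0.37 to 0.24. In replicate 3 it was 0.075 and 0.14, where *Gnrh1* read -0.27 and -0.12. The part of the block in the *Gnrh1* values was not tested. With print-tip loess, which smooths within blocks, *Gnrh1* read 0.16 on this array and 0.33 on its dye swap, so replicate 1 was above 0. The print-tip mean over 3 replicates was -0.039 (limma adjusted p = 0.988). In the authors' deposited table, read as natural logs, the same spot stood at 0.80 on the log2 scale. With that table the *Gnrh1* replicate values were 0.52, -0.12 and -0.074. Their mean was 0.11 (limma adjusted p = 0.992), so the direction of the mean turned. Without replicate 1 the mean was -0.17.

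*Ucn* did not pass the test either. Its log2 ratio by array was 0.19 and -1.77 in replicate 1, -0.092 and 0.98 in replicate 2, and -0.66 and -0.092 in replicate 3. The replicate values were -0.79, 0.44 and -0.38, so the replicates disagreed in sign and 1 of 3 was above 0. The mean was -0.24 ± 0.26 (SE, n = 3), a fold of 0.845 with a 95% interval of 0.537 to 1.33 (limma, two-sided adjusted p = 0.872). The exact sign-flip permutation p was 0.75. The SD over the 6 arrays was 0.92 for *Ucn*, larger than that of 85.1% of tested probes, and 0.38 for *Gnrh1*, larger than that of 23.9%.

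Both extreme *Ucn* values were on arrays with collagen in Cy3, at -1.77 in replicate 1 and 0.98 in replicate 2. On the first of these the median of its block was -0.93 and on the second 0.17, and the part of the block was not tested. On the second, scans 2 and 3 held saturated pixels and were left out, and the 3 scans ran from 0.57 to 0.98. With print-tip loess these arrays read -0.38 and 0.66, and the authors' deposited table had -0.59 and 0.54 on the log2 scale. Direction on these 2 arrays was thus the same by all 3 routes, while the sizes differed. The *Ucn* mean was -0.026 with print-tip loess (limma adjusted p = 0.996), and without replicate 1 it turned to 0.033 (limma adjusted p = 1.00).

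**Figure D2:**
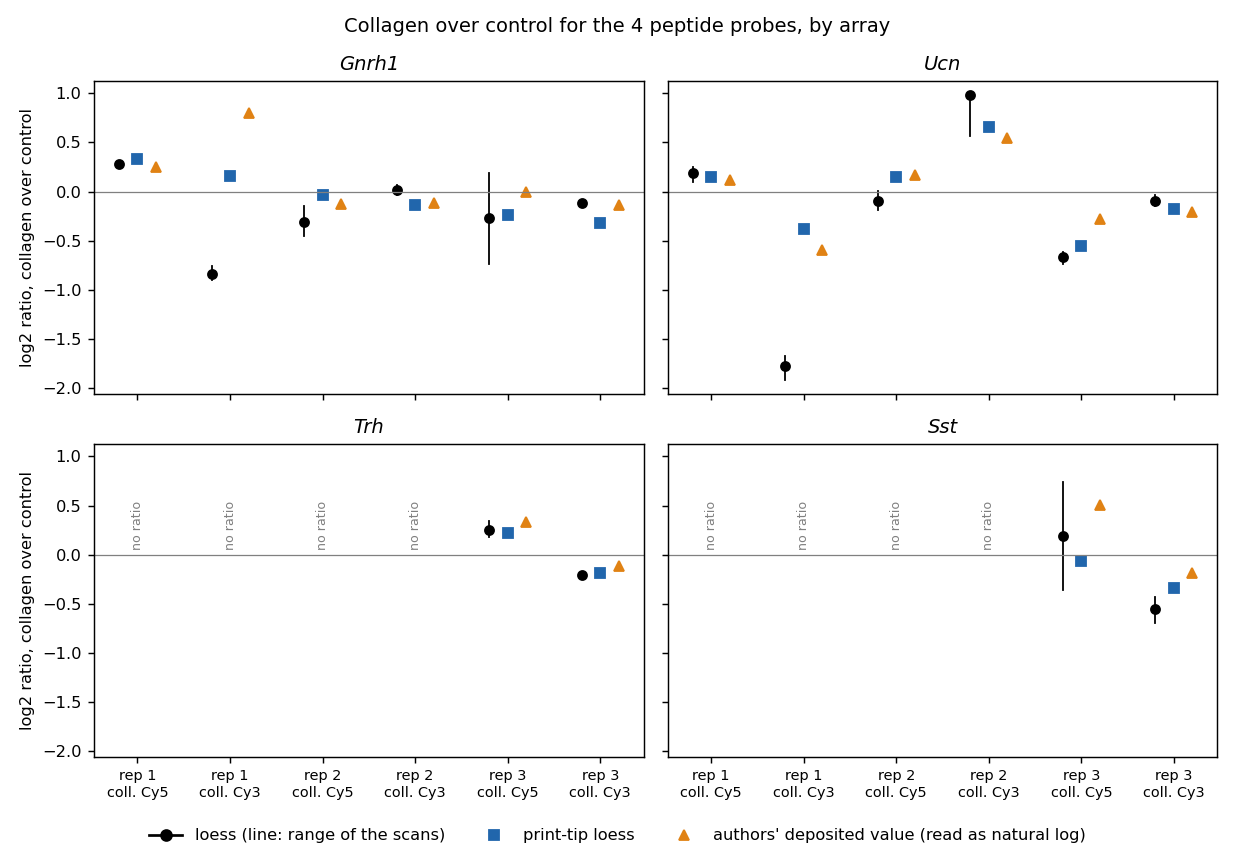
Log2 ratio of collagen over control for each gene on each array, as loess values (black points, with lines for the range of the repeat scans), print-tip loess values (blue squares) and the authors' deposited values read as natural logs (orange triangles). On the array of replicate 1 with collagen in Cy3, Gnrh1 is at -0.84 by loess and at 0.80 in the authors' table; Trh and Sst have ratios in replicate 3 alone.

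*Trh* and *Sst* had ratios in 1 replicate and could not be tested. *Trh* read 0.25 on the array of replicate 3 with collagen in Cy5 and -0.20 on its dye swap, a mean of 0.025. As channel B over channel A these values were 0.25 and 0.20, so the ratio kept its sign by channel and changed it by treatment. *Sst* read 0.19 and -0.55, a mean of -0.18, and as channel B over A 0.19 and 0.55. The repeat scans of *Sst* on the first of these arrays gave -0.36 and 0.74, and the remaining scan had no channel A value. The scans of *Trh* were closer, at 0.18 to 0.34 and at -0.20 on the dye swap. In the authors' deposited table the means over the same arrays were 0.11 for *Trh* and 0.16 for *Sst* on the log2 scale, so *Sst* turned.

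Without replicates for *Trh* and *Sst* no collagen difference could be tested and no limit set on one. For *Gnrh1* and *Ucn* the 95% intervals on the log2 scale, -0.58 to 0.17 and -0.90 to 0.41, hold no change as well as differences in either direction. The median half-width of such an interval over the tested probes was 0.45, and *Ucn* was less precise than most.

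**Figure D3:**
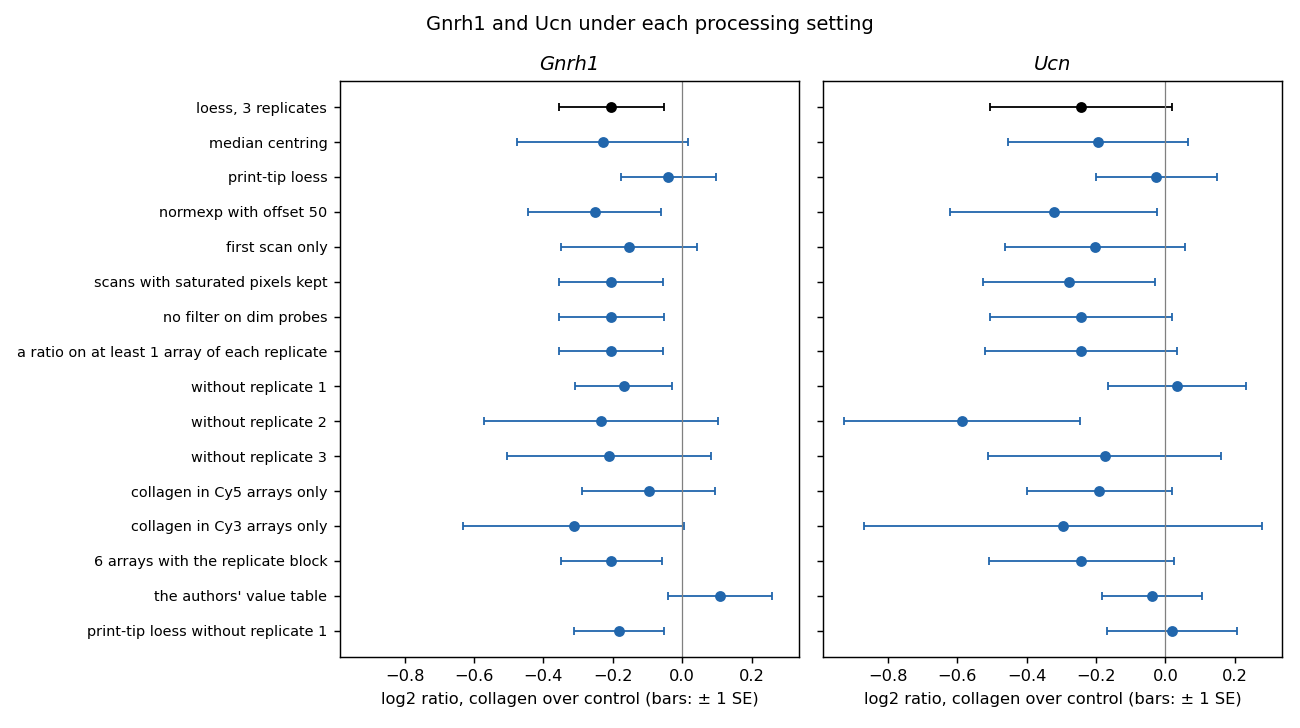
Mean log2 ratio of collagen over control for Gnrh1 (left) and Ucn (right) under each processing setting, with bars of 1 SE from limma; black marks the loess value over 3 replicates. Gnrh1 lies between -0.31 and 0.11 and Ucn between -0.59 and 0.033 over the alternatives, with no adjusted p below 0.741.

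Of the other genes of the system, 7 role lists held 77 symbols, of which 39 had a named probe (40 probes), and 10 of those probes were tested. The symbol *Brn4*, counted as without a probe, is an alias of *Pou3f4*, which had a probe. Of the 10, 0 passed in either direction and 0 had an unadjusted p under 0.05 (limma). Their median log2 ratio was -0.094, with 3 positive and 7 negative, beside -0.089 for all tested probes. Ratios on 5 or 6 arrays were found for 27.5% and 25% of the 40 probes, against 13.7% and 23.0% of all probes. On 2 arrays, as for *Trh* and *Sst*, they were found for 10% of the 40 and 24.2% of all.

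**Figure D4:**
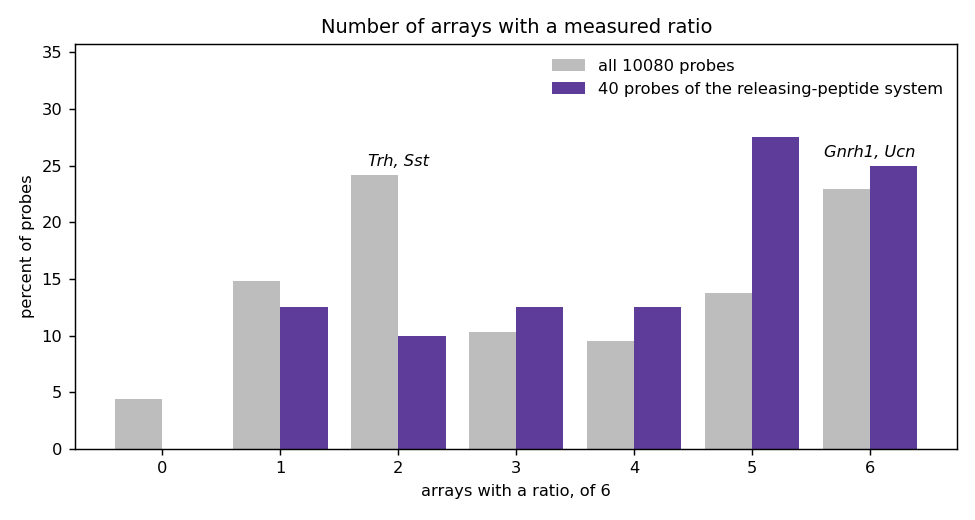
Percent of probes with a ratio on 0 to 6 of the 6 arrays, for all 10080 probes (grey) and for the 40 probes of other genes of the releasing-peptide system (purple). Trh and Sst belong to the 24.2% of all probes with 2 arrays, and Gnrh1 and Ucn to the 23.0% with 6.

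Among related peptides, none of the 5 genes with a probe had a ratio on all 6 arrays. *Ghrh*, growth hormone-releasing hormone and the counterpart of somatostatin, had ratios on 4 arrays, 2 of them above 0. *Cort*, the somatostatin relative cortistatin, was below 0 on each of its 5 arrays, with -0.57 in replicate 2 and -0.23 in replicate 3, and was not tested. *Ucn3*, a further urocortin, read -0.28 in replicate 1 and 0.13 in replicate 2. *Crh* itself was not found among the named probes used here.

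Of 10 receptor genes with a probe, 1 was tested. *Crhr1*, a receptor of urocortin and corticotropin-releasing hormone, stood at 0.045 ± 0.16 (SE, n = 3; limma adjusted p = 0.939), with replicate values of 0.13, -0.12 and 0.13. *Trhr*, a receptor of thyrotropin-releasing hormone, read -0.053 in replicate 1 and 0.092 in replicate 2. The somatostatin receptors *Sstr1*, *Sstr2*, *Sstr3* and *Sstr4* had ratios on 2, 1, 3 and 1 arrays. *Gnrhr*, which pituitary gonadotrophs carry, was not found among the named probes.

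Of the enzymes and granule proteins that process peptide precursors, 4 were tested. *Qpct*, which forms the N-terminal pyroglutamate that gonadotropin- and thyrotropin-releasing hormone carry, was at -0.38 ± 0.17 (SE, n = 3; limma adjusted p = 0.872). *Pam*, which amidates their C-terminus, was at -0.34 ± 0.22, with replicate values of -0.89, -0.053 and -0.080, so its size rested on replicate 1. *Scg2* was at -0.23 ± 0.15 and *Scg3*, both granins of secretory granules, at 0.16 ± 0.21. By replicate *Scg3* read 0.67, -0.18 and 0.0091. It lay in block row 3, column 4, as did *Oxt*, which read 3.03 in replicate 1, and the part of the block was not tested. *Thop1*, a peptidase that cleaves gonadotropin-releasing hormone, had 2 probes at -0.0068 and -0.16. None passed the test. The progesterone receptor *Pgr* was at -0.31 ± 0.16 with replicate values of -0.40, -0.16 and -0.36. *Creb1*, which binds the cAMP response element, was at 0.71 ± 0.43 from replicate values of 2.06, 0.16 and -0.093. Its size thus rested on replicate 1. In its printing block, row 1, column 4, *Pnoc* at 1.04 and *Gcsh* at 1.09 also read high, though *Canx* read -0.34. The part of the block in the *Creb1* value was not tested. *Thrb* and *Dio2*, of thyroid hormone feedback, had ratios on 2 and 3 arrays.

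Anterior pituitary markers were checked because the pituitary lies beneath the tissue taken. Of 11 listed symbols (*Pit1* and *Pou1f1* are the same gene), 5 had a probe and 1 was tested. This was *Pitx1* at 0.25 ± 0.19, with 0.64 in replicate 1 and 0.036 and 0.066 in the others. Its block, row 3, column 4, also held *Oxt*, which read 3.03 in replicate 1, and the part of the block was not tested. The hormone genes *Tshb* and *Lhb* had ratios on 5 arrays and *Fshb* on 2, and *Prl*, *Gh* and *Cga* were not found among the named probes. Their part in the results was not tested.

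The tested probes whose ratios over the 6 arrays were most like those of *Gnrh1*, by Pearson's r, were *Zfand5* at 0.977, *Mtpn* at 0.975, *Stxbp4* at 0.969, *Supt7l* at 0.965 and *Kdm8* at 0.963. For *Ucn* they were *Eng* at 0.995, *Fam227a* at 0.989, *Cend1* at 0.986, *Psmd7* at 0.984 and *Neurl2* at 0.976. *Gnrh1* and *Ucn* themselves correlated at 0.848. These values describe 6 arrays that share their dyes, scans and printing blocks, and the array at -0.84 and -1.77 weighs in both genes.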

How the data were processed

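Relative RNA levels in mouse hypothalamus were measured on 6 arrays of 48 printing blocks, each with 3 files read as repeat scans, never as replicates. The deposited spot intensity of each channel was background-corrected and summed over pixels, 0 where the channel was rejected, per the file headers. The local background intensity, the spot area and the saturation factor, a fraction of pixels, were also deposited, per the file headers. No source used here names the quantification software. The authors' deposited value table held 1 log ratio per probe and array, read here as natural log values, with its base, direction and normalization not stated and column medians of -0.018 to 0.0015. The scan rows, ordered by block and spot position, and that table gave the same answer on whether a spot had a ratio for 84.1% to 95.6% of spots, against 53.4% to 60.1% in file order.

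Log2 ratios of spots above 0 in both channels were smoothed scan by scan with loess (span 0.3). Each spot took the mean of its scans, without those with saturated pixels where another had none, then turned to collagen over control, and the 2 dye-swapped arrays of a replicate were averaged. Probes with a ratio on 6 arrays and a foreground above 1.5 times background in either channel on 4 or more arrays were tested against 0 with limma 3.58.1 in R 4.3.3 (two-sided, Benjamini-Hochberg over 2316 probes, threshold 0.05). The SE, intervals and p-values of these fits use a variance moderated across the tested probes. Precision is limited by having few arrays. Turned ratios of the dye-swapped pairs, which the series design gives as technical replicates, correlated at -0.20, -0.75 and -0.32 over the tested probes.

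The members, lists and tests were chosen with earlier results of these data known. The named genes are the 4 members, the 5 probes most like each tested member, and genes of 7 role lists and marker lists. Of the probes, 9066 had 1 symbol, 12 several and 1002 none, and 8977 matched RefSeq genes of GRCm38.p6 by Entrez identifier, used for names. Alternatives covered normalization, background, scans, filters, replicates, dye orientation, a replicate block and the authors' table. Figures were drawn with matplotlib 3.10.9.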

Additional observations from a re-analysis of the deposited data

Results flagged for a closer look

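*Gnrh1* stood at percentile 89.2 of channel A on the array of replicate 1 with collagen in Cy5, farther above the other 5 arrays than the gap rule for 6 values allows. *Ucn* stood at percentile 48.9 of channel A on the array of replicate 1 with collagen in Cy3, farther below its other 5 arrays than that rule allows. About 1 in 20 such sets would pass by chance, and 8 were examined.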

How the results depend on the processing

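No alternative brought *Gnrh1* or *Ucn* past the threshold. The number of probes past it was 0 in 15 of 16 alternatives and 27 with collagen in Cy5 arrays only, where a dye effect does not cancel, neither *Gnrh1* nor *Ucn* being among them (limma adjusted p = 0.874 and 0.741). Unadjusted p under 0.05 was reached by 4 to 402 probes. *Gnrh1* was negative in 14 of 15 alternatives and was 0.11 with the authors' table. That count includes settings that could not change its mean, each of which gave -0.20 again. They were saturated scans kept, no filter on dim probes, a ratio on at least 1 array of each replicate, and the replicate block. Leaving out a replicate gave -0.23 to -0.17 for *Gnrh1* and -0.59 to 0.033 for *Ucn*, which turned without replicate 1 (0.033) and with print-tip loess without replicate 1 (0.019), a setting added after seeing the data. *Sst* turned with normexp (0.22), the first scan only (0.16), collagen in Cy5 arrays only (0.19) and the authors' table (0.16). *Trh* turned with collagen in Cy3 arrays only (-0.20). *Sst* had 5 detected channels with a value required in every scan. On 6 arrays with the replicate block, *Gnrh1* was -0.20 and *Ucn* -0.24 (adjusted p = 0.831 for both), and the block changed no call. With 2 times the background in both channels on all arrays, 324 probes were left, and neither *Gnrh1* nor *Ucn* was tested. Without replicate 3, *Trh* and *Sst* had no value. The causes of these shifts were not tested, except that the last 2 follow from fewer probes or samples.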
